A study of Mus musculus with 3 samples.

Results

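Cells with basal keratins were 68 of the 2425 single cells that passed the filters in 3 mouse pancreatic tumours. A cell was taken into this set, called keratin-gated below, when the basal keratin genes Krt5, Krt14 and Krt15 together made up 0.3% or more of its unique molecular identifiers (UMIs, each standing for 1 captured RNA molecule). The levels of these 3 genes chose the cells and are given as a description. The label of the set, squamous-like cells, was read against 4 marker genes that took no part in the choice of cells, Krt17, Krt6a, Trp63 and Col17a1. These markers were picked with earlier results of these data known, so that reading is a description too.

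All 3 tumours belong to 1 group and share every allele and treatment. The donor mice carried Msi2-Myc, which the series title spells out as Musashi2-CreER-MycT58A, with the Cre-dependent red reporter R26-LSL-tdTomato. By this name CreER is under Musashi2 control, so tamoxifen acts in cells that express Musashi2, and T58A is a change known to stabilise the Myc protein. Epithelial cells positive for tdTomato were sorted 5 weeks after tamoxifen, and they were placed in the pancreas of immunodeficient NSG hosts, which lack mature lymphocytes. EpCAM-positive cells were sorted from the end-stage tumours, 1 droplet library per tumour. The title lists ASCP, PDAC and ACC tumours, but the sample labels do not say which tumour is which, so no tumour is given a subtype here and nothing was tested between tumours. The labels do not say whether the tumours came from separate donors.

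Basal keratinocytes line the basement membrane of stratified epithelia such as epidermis and oesophagus. Their keratin filaments, mainly the Krt5 and Krt14 pair, are tied to the matrix through hemidesmosomes and to neighbouring cells through desmosomes, and the transcription factor p63 (Trp63) sustains the basal state. The normal pancreas has no such layer: its ducts carry the simple keratins Krt7, Krt8, Krt18 and Krt19. Cells with basal keratins are known from adenosquamous pancreatic cancer, in which a squamous component lies beside a glandular one.

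The libraries held between 9737397 and 16521484 UMIs. After filtering they gave 1012, 204 and 1209 cells for tumours 1, 2 and 3, with a median of 1701.5, 1272 and 2244 UMIs per cell. The same barcodes recurred in all 3 libraries with like contents, so a barcode was counted as a cell of the library that held 60% or more of its UMIs. The keratin-gated cells of tumour 3 had between 75.4% and 84.2% of their UMIs in their own library, with a median of 78.7%, against a median of 78.9% over all cells of that tumour.

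Nearly all keratin-gated cells came from tumour 3. Tumour 1 held 2 of 1012 cells (0.198%, exact Clopper-Pearson 95% interval 0.0239% to 0.712%), and tumour 2 held 2 of 204 (0.980%, 0.119% to 3.50%). Tumour 3 held 64 of 1209 (5.29%, 4.10% to 6.71%). The intervals cover counting error only. Over the tumours the share was 2.16% ± 2.74 (SD, n = 3), an SD larger than the mean, and without tumour 3 the mean was 0.589%. Most other cells had no UMI of the 3 keratins: 1003, 199 and 1041 cells in tumours 1, 2 and 3. Between 0 and the gate lay 7, 3 and 104 cells. In tumour 3, 90 of these 104 were under 0.1%, 9 lay at 0.1% to under 0.2% and 5 at 0.2% to under 0.3%. Just inside the gate, at 0.3% to under 0.4%, lay 9 cells, so no gap set the keratin-gated cells apart.

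**Figure D1:**
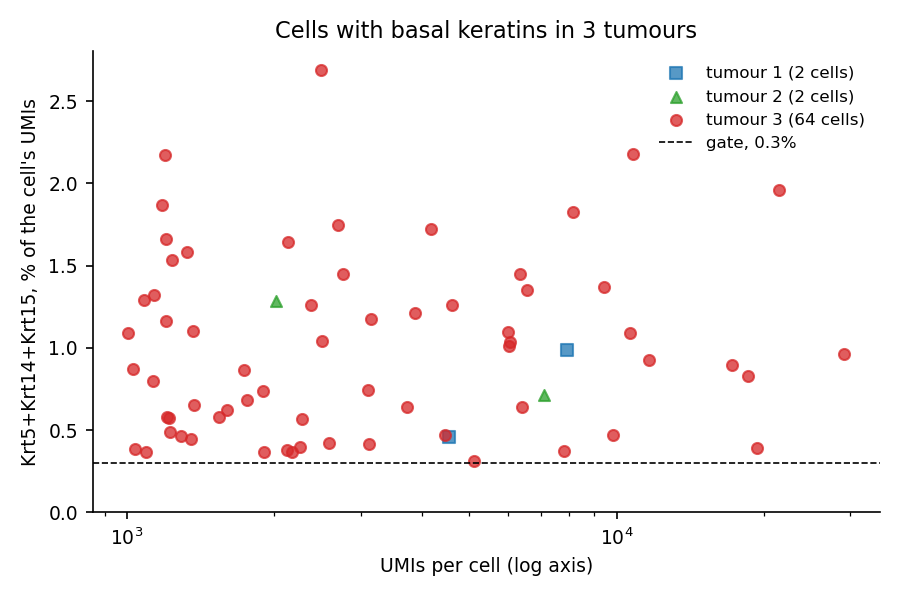
Each point is 1 keratin-gated cell, with its UMIs on a log axis and the share of its UMIs from Krt5, Krt14 and Krt15 in percent. The dashed line is the gate at 0.3%. The 64 cells of tumour 3 reach from 0.313% to 2.69%, and the 4 cells of tumours 1 and 2 lie within that range.

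The 64 cells of tumour 3 had 1007 to 29117 UMIs, with a median of 2435.5, and 307406 in all. Their keratin share ran from 0.313% to 2.69% with a median of 0.913%. The 5 cells just outside the gate (0.2% to under 0.3%) had Krt5 at 1116 UMIs per 1000000 (CPM), Krt14 at 1434 and Krt15 at 53.1. The 9 cells just inside (0.3% to under 0.4%) had Krt5 at 1749, Krt14 at 886 and Krt15 at 1120. Krt17 stood at 1328 CPM just outside and 350 just inside, so the gate leaves out a few cells with Krt17. Free RNA, measured in barcodes of 10 to 100 UMIs, held Krt5 at 18.9, 36.4 and 56.9 CPM in tumours 1, 2 and 3, and Trp63 at 0, 0 and 0.948.

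Levels below are UMIs summed over a set of cells and scaled to 1000000 (CPM), and they refer to tumour 3 unless another is named. They are not divided by gene length, and the droplet method reads 3' ends. The keratin-gated cells were set against cells of the same tumour that failed the gate. The ductal reference has 377 cells with Krt19, Tff1, Tff2 and Lgals4 at 0.5% or more of UMIs. The injury reference has 57 cells with Msln, Ly6a and Tm4sf1 at 0.3% or more, and the acinar reference 499 cells with the digestive enzyme genes Ctrb1, Clps, Cpa1, Pnliprp1 and Prss2 at 1% or more. Injury reference cells were set aside first. Ductal reference cells also needed more UMIs of the ductal than of the acinar genes, and acinar reference cells the reverse. Cells of 1 tumour are not replicates, and tumours 1 and 2 rest on 2 keratin-gated cells each. A test over tumours was planned for 2 or more tumours with 20 or more such cells, and none was made. Values carry exact counting intervals (95%), and a gene is counted as higher or lower when its level differed by 2-fold or more, with 10 or more UMIs in both sums together. In these sums the number of RNA molecules per cell and the number of cells that carry the gene cannot be told apart, so shares of cells are given beside the main genes.

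Krt5 stood at 3956 CPM in the keratin-gated cells of tumour 3 and 12.3 in the ductal reference. It was found in 63 of the 64 cells. Krt14 stood at 3175 against 14.6, in 56 cells, and Krt15 at 3357 against 13.8, in 48 cells. For Krt15, 300 of the 1032 UMIs came from 1 cell. In the reference these levels were below those of free RNA in the same library. Krt5, a type II keratin, lies at chr15:101707070-101712898 on the minus strand (mm10). The type I partners Krt14 (chr11:100203162-100207548) and Krt15 (chr11:100131758-100135928) lie in 1 cluster with Krt17 (chr11:100256217-100261029).

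The promoters of 3 genes that were high together in these cells are shown, since the cells were chosen by 1 of them and named by another: Krt5, the hemidesmosome collagen Col17a1 and the squamous-epithelium adaptor Sfn. They are the bases upstream of the RefSeq start on GRCm38.p6, 5′ to 3′ on the minus strand, without any base of an annotated exon. Capitals mark TATAAA and CATG, the core of the half-site bound by p53-family factors.
Krt5, chr15:101712906-101713155: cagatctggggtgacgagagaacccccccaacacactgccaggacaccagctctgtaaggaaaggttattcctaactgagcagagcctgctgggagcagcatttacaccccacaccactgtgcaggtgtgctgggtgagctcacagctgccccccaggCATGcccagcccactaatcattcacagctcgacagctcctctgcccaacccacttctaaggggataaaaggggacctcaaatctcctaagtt
Col17a1, chr19:47692095-47692292: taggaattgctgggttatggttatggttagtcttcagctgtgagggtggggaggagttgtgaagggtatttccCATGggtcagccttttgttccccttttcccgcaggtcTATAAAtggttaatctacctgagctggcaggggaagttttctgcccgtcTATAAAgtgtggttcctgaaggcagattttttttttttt
Sfn, chr4:133602169-133602418: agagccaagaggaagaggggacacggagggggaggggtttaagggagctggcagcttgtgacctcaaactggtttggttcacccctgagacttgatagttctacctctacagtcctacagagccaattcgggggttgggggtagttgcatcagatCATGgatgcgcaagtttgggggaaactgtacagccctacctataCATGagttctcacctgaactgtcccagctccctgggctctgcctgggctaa
Searched on both strands, CATG occurred 1 time upstream of Krt5, 1 time upstream of Col17a1 and 2 times upstream of Sfn. It also occurs in 54.1% of 27025 promoters over 250 bases. TATAAA, present in 13.0% of promoters, occurred 2 times upstream of Col17a1. TGANTCA (an AP-1 site, 6.87% of promoters), GCCNNNGGC (an AP-2 site, 13.6%) and GGGCGG (a GC box, 32.9%) had no match in the 3 windows. The Col17a1 window has 198 bases, with 52 left out, so the shares over 250 bases are not like for like with it. Of the 7 basal marker genes, 3 were in the promoter table. Krt14, 1 of the 3, is not shown because its entry starts at an internal exon of the annotated gene.

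All 4 markers outside the gate were higher in the keratin-gated cells, against 12.3% of the 8983 genes tested. Krt17, a keratin of activated and basal cells, stood at 1044 CPM (95% counting interval 933 to 1165) against 16.9 in the ductal, 152 in the injury and 13.5 in the acinar reference. Krt6a, a keratin of wounded epidermis, gave 175 UMIs (569 CPM) against 1 UMI in the ductal reference, a ratio of 743 with a counting interval of 132 to 29500. Trp63 gave 63 UMIs (205 CPM) against 1, a ratio of 267 (46.3 to 10726). Col17a1, which anchors basal cells to the basement membrane, gave 111 UMIs (361 CPM) against 2, a ratio of 236 (63.7 to 1969). The upper ends of these intervals rest on 1 or 2 UMIs in the reference, while the lower ends are all above 40. The intervals cover counting error only and leave out the spread between cells. Single cells held 48 of the 175 Krt6a, 32 of the 111 Col17a1 and 12 of the 63 Trp63 UMIs. The data of tumour 3 did not go against the label. The markers were picked with earlier results of these data known, so this is no independent check of it.

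The markers were not found in every keratin-gated cell. Krt17 had a UMI in 32 of the 64 cells, Krt6a in 28, Col17a1 in 23 and Trp63 in 16. With each cell thinned to 1000 UMIs, Krt17 was seen in 37.5% of keratin-gated cells (25.7% to 50.5%) and 1.86% of ductal reference cells. Krt6a was seen in 18.8% against 0%, and Trp63 and Col17a1 each in 12.5% (5.55% to 23.2%) against 0% and 0.265%. Before thinning, Krt17, Krt6a, Col17a1 and Trp63 were seen in the 32, 28, 23 and 16 of 64 keratin-gated cells given above, at a median of 2435.5 UMIs, and in 2.65%, 0.265%, 0.531% and 0.265% of ductal cells, at a median of 2023. A count of 0 in 377 cells allows a share of up to 0.974% of cells with a UMI at that depth, which does not limit the share of cells that express the gene.

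**Figure D2:**
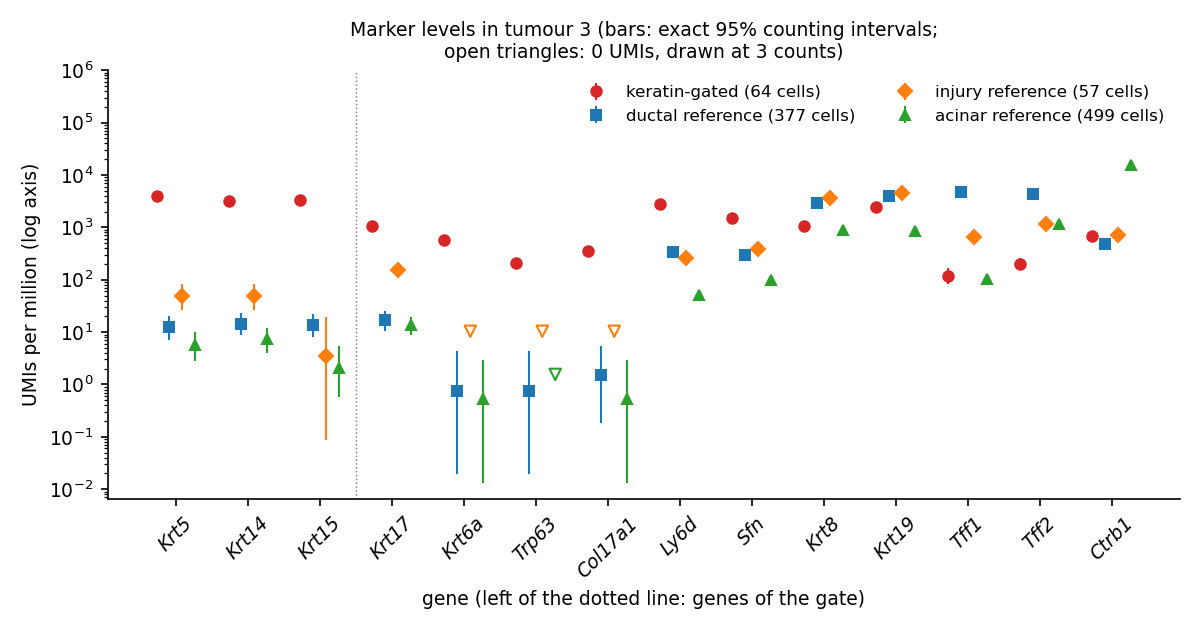
CPM (log axis) of 14 genes in 4 sets of cells of tumour 3, with exact 95% counting intervals; open triangles mark 0 UMIs and are drawn at 3 counts. The 3 genes of the gate are left of the dotted line. Krt17, Krt6a, Trp63 and Col17a1 are highest in the keratin-gated cells, Tff1 and Tff2 in the ductal reference and Ctrb1 in the acinar reference.

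Genes that fix basal cells to the basement membrane were higher as a group. Of 13 hemidesmosome and basement membrane genes, all tested, 8 were 2-fold or more higher than in the ductal reference and none was lower, with a median log2 ratio of 1.66 against 0.02 over all genes. Col7a1, the anchoring fibril collagen, gave 18 UMIs against 1. The plakin Dst stood at 237 against 23.8 CPM (ratio 9.99, counting interval 6.48 to 15.7). The integrin subunit Itgb4 stood at 182 against 57.5, and the laminin chain Lama3 at 87.8 against 20.7. The plakin Plec, which ties keratin to Itgb4, stood at 179 against 80.5. Itga6, the partner of Itgb4, differed less, at 410 against 262, as did the integrin Itgb1, at 270 against 155. Against the injury reference, where 13.6% of 6320 genes were higher and 12.2% lower, 3 of the 13 were higher and 2 lower. Lama3 was within 2-fold of that reference, at 87.8 against 111.

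Desmosome genes divided by isoform. Of 10 tested, 6 were higher and 1 was lower (median log2 ratio 1.49), while 14.4% of all genes were lower. The isoforms of stratified epithelia were the ones with the steepest ratios: Dsg3 had 26 UMIs against 2, Pkp1 30 against 2, and Dsc3 17 against 0, which is at least 24.0-fold higher when the 0 is read as 3 counts. The desmosomal genes of simple epithelia were not higher. Dsg2 stood at 159 against 179 CPM, Dsc2 at 48.8 against 88.9, and Pkp2 at 16.3 against 56.0, the 1 lower gene. The linker desmoplakin, Dsp, stood at 634 against 167 (ratio 3.80, 3.11 to 4.63) and Perp, a p63 target in skin, at 560 against 158. The linker plakoglobin, Jup, stood at 231 against 103. Among the 6 keratin-gated cells left when 80% of UMIs had to lie at home, Dsp was not higher (log2 ratio -0.23), nor was Plec (-0.67).

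Of 7 tested wound and suprabasal keratins 6 were higher, with a median log2 ratio of 5.29. Krt17 and Krt6a, described above, are 2 of the 6. Krt16, induced in wounded skin, stood at 150 against 3.83 CPM and Krt6b at 81.3 against 0.766. Krt6a and Krt6b are near-identical copies, so their reads can be shared between them. Krt13 and Krt4, the pair of suprabasal oesophageal cells, stood at 61.8 against 2.30 and 94.3 against 7.67, with 16 of the 29 Krt4 UMIs in 1 cell. Krt10, of the differentiated epidermis, gave 4 UMIs, and Krt1 gave 0 in all 64 cells, where the floor of 3 counts is 9.76 CPM.

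Simple keratins were present, several at lower levels. Of 5 tested beside Krt19, which helped choose the reference, 1 was higher and 2 were lower. Krt8 stood at 1080 against 2937 CPM (ratio 0.368, 0.328 to 0.411), Krt18 at 719 against 1288, and Krt19 at 2476 against 3947. Krt7 was not lower, at 1051 against 599, and Krt23, the higher one, gave 24 UMIs against 17, with 18 in 1 cell. Against the acinar reference Krt8 was not lower (log2 ratio 0.28). Krt19 was found in 82.8% of the thinned keratin-gated cells (95.3% before thinning), so basal keratins and Krt19 were read from the same barcodes. Krt19 was also found in 54.7% of thinned acinar reference cells (77.4% before thinning), and its level in free RNA was not measured. Krt20, a keratin of gastrointestinal surface cells, gave 0 UMIs against 91, at least 7.15-fold lower.

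Genes of the cornified envelope, the shell of the outermost squamous cells, gave a partial pattern. Of its 19 genes, 10 could be tested: 6 were higher and none lower, with a median log2 ratio of 1.26. Against the injury reference 3 of 9 were higher and 4 lower, with a median of 0.53. Sbsn and Dmkn, secreted by differentiating keratinocytes, had ratios of 5.02 (2.07 to 12.4) and 4.73 (2.69 to 8.37). Sprr2d had 11 UMIs against 0, in 4 cells. Sprr2a3 stood at 319 against 509, and the small proline-rich gene Sprr1a at 387 against 178, below the 790 of the injury reference. The protease inhibitor Cstb stood at 599 against 228 and the interleukin antagonist Il1rn at 48.8 against 72.8. The late genes Flg, Sprr3, Sprr1b, Tgm3, Cnfn and Cdsn gave 0 UMIs in the keratin-gated cells.

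Surface and cytosolic genes of squamous cells were higher in 8 of 10 tested, with a median log2 ratio of 2.04. Against the injury reference 5 of 10 were higher and none lower, with a median of 1.44. Ly6d, a lymphocyte-antigen family protein of squamous epithelia, stood at 2778 against 345 CPM (ratio 8.05, 7.18 to 9.05) and was seen in 68.8% of thinned cells against 27.3%. Of its 854 UMIs 262 lay in 1 cell. Sfn stood at 1483 against 302 (ratio 4.91, 4.28 to 5.64) and was seen in 71.9% against 26.8%, from 89.1% and 43.8% before thinning. Lypd3 gave 24 UMIs against 1, and the connexin Gjb2 30 against 2. Aqp3, a glycerol and water channel of keratinocytes, stood at 244 against 52.1, and Serpinb5, also called maspin, at 361 against 104. S100a14 was less than 2-fold higher, at 394 against 225, and Fabp5 was not higher, at 1431 against 1962.

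Among transcription factors, the lineage factor Trp63 stood apart from the others. Of 11 squamous transcription factors tested 4 were higher and none lower, with a median log2 ratio of 0.75. Besides Trp63 these were Tfap2a (8 UMIs against 2), the grainyhead factor Grhl1 (8 against 4), and Trim29 at 58.6 against 16.9 CPM. Zfp750, an epidermal differentiation factor, lay at the threshold with a ratio of 2.00 and a counting interval of 0.746 to 4.88. Klf4 stood at 218 against 163 and Klf5 at 237 against 342, so these factors, which simple epithelia also use, differed less. Id1 stood at 202 against 218 CPM, and Gata3 and Ovol1 each at 13.0 against 13.8. Sox2 gave 1 UMI, and Tfap2c gave 0. Snai2, a p63-linked factor of basal cells that is also an inducer of mesenchymal transition, gave 16 UMIs in 9 cells and 0 in the ductal, injury and acinar references, at least 22.6-fold above the ductal one. Of 3 mesenchymal genes tested 2 were higher, Snai2 and the protease Mmp14, at 74.8 against 21.5. Vim gave 1 UMI, Zeb1, Zeb2, Snai1, Twist1 and Cdh2 gave 0, and E-cadherin (Cdh1) stood at 312 against 277.

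Keratinocytes use the Notch pathway to leave the basal layer. Of its receptor, ligand and target genes, 8 of 10 tested were higher and none lower, with a median log2 ratio of 2.09. Against the injury reference 4 of 9 were higher and none lower, with a median of 0.72. The receptor Notch1 stood at 166 against 17.6 CPM (ratio 9.41, 5.65 to 16.1). The ligand Jag1 stood at 169 against 22.2, with 17 of its 52 UMIs in 1 cell. The feedback target Nrarp stood at 84.6 against 23.8, whereas the target Hes1 reached 280 against 156, under 2-fold. Hey1 and Heyl gave 0. In the EGF family 2 of 8 genes tested were higher and 1 lower. Areg, an EGF receptor ligand, stood at 381 against 130, with 47 of 117 UMIs in 1 cell, Tgfa had a ratio of 2.01 (0.801 to 4.66). Hbegf, another ligand, reached 322 against 163, the receptor Erbb3 48.8 against 64.4 and the feedback inhibitor Errfi1 81.3 against 65.2, and Egfr itself stood at 61.8 against 42.2.

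**Figure D3:**
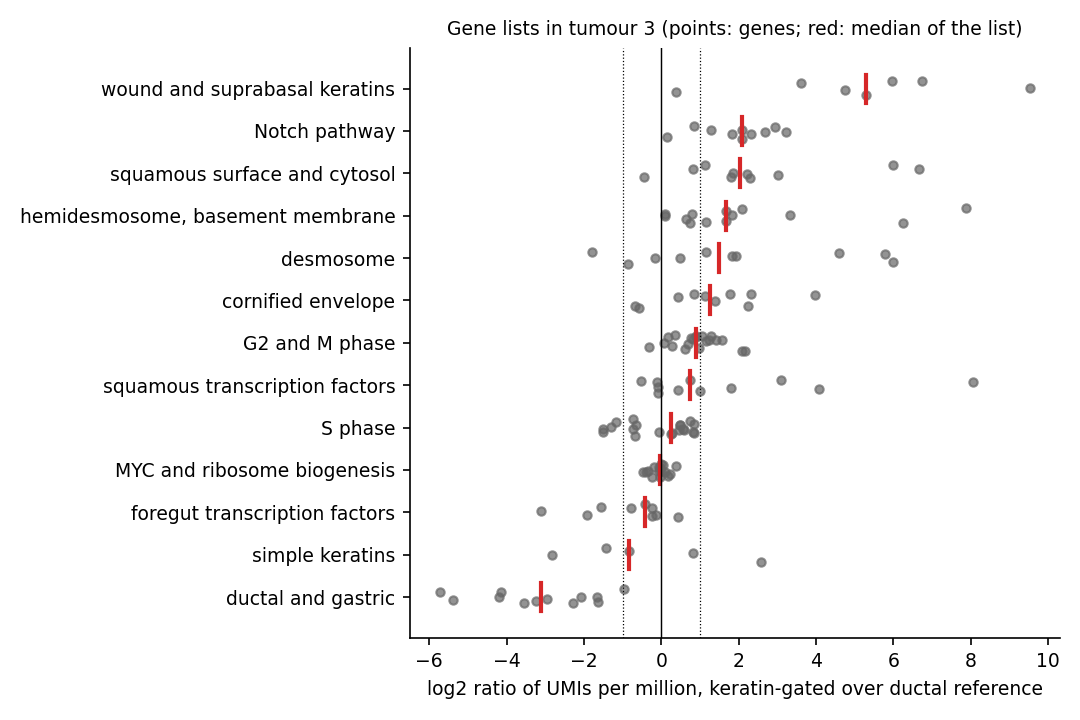
Each point is a gene of 1 list, placed by the log2 ratio of its level in the keratin-gated cells over the ductal reference of tumour 3. Red bars are list medians, from 5.29 for wound and suprabasal keratins to -3.11 for ductal and gastric genes, and dotted lines mark 2-fold. MYC and ribosome biogenesis genes lie around 0.

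By the rule for the highest ratios, several further genes were named. Acta2, smooth muscle actin, gave 57 UMIs in 17 cells against 1 UMI in the ductal reference (ratio 242, 41.7 to 9720). The other 5 genes of the myoepithelial and smooth muscle list, Myh11, Cnn1, Oxtr, Tagln and Myl9, gave 0 UMIs in the 64 cells. Lgals7, a galectin of stratified epithelia, stood at 810 against 10.7 CPM, and was seen in 39.1% of thinned cells against 1.33%. Fscn1, an actin-bundling protein, stood at 140 against 1.53, and Defb1, an antimicrobial peptide, at 71.6 against 0.766. The lipid carrier Apoe stood at 273 against 3.07, and the chemokine Ppbp at 211 against 3.07, with 28 of 65 Ppbp UMIs in 1 cell. The carbonyl reductase Cbr2 gave 95 UMIs against 2, 45 of them in 1 cell. Gas1, a Hedgehog co-receptor, gave 29 against 1, with 17 in 1 cell, and the polarity gene Pard6g and the Hippo-pathway gene Amotl1 gave 26 against 1 and 30 against 2.

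Ductal and gastric genes were lower almost throughout. Of 12 tested that had not chosen the reference, 11 were lower and none higher, with a median log2 ratio of -3.11. Gkn1 and Agr2, both of gastric-type mucous cells, gave 1 UMI against 226 and 2 against 357. Gkn2 gave 0 against 233, at least 18.3-fold lower, and the gastric protease Ctse stood at 52.0 against 605. The chloride channel Cftr gave 0 against 62. Epcam, on which the cells were sorted, was the 1 gene within 2-fold, at 491 against 954 CPM. The reference-defining trefoil genes Tff1 and Tff2 stood at 120 against 4745 and 198 against 4301. Against the acinar reference the list did not point down, with a median log2 ratio of 0.43. The other genes named for the lowest ratios were Clca1, Prap1, Lgals2, Vil1, Fabp4, Ceacam12, Lrg1 and Lypd8. Clca1 gave 1 UMI against 470, Vil1, a brush border protein, 1 against 138, and Lypd8 10 against 828.

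Of 9 foregut and ductal transcription factors tested 3 were lower. Foxa2 gave 1 UMI against 37, Hnf4a 3 against 48 and Pdx1 5 against 63, counts whose upper interval ends are ratios of 0.680, 0.823 and 0.828. Sox9, a ductal progenitor factor, stood at 104 against 76.7 CPM, Foxa1 at 65.1 against 71.3 and Onecut2 at 768 against 901. Gata4 gave 7 UMIs against 51, less than 2-fold apart in CPM, and Foxa3 gave 0 against 17. Foxa2 gave 0 UMIs in the 64 cells after thinning, and Foxa2, Hnf4a and Pdx1 gave 0 in the 6 cells left at 80% home UMIs, too shallow to give a ratio. Of the progenitor list, 1 of 6 genes was higher and 1 lower. Prom1, a surface protein of ductal and progenitor cells, stood at 52.0 against 465, and Cd24a at 241 against 455.

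A minority of the keratin-gated cells also carried another program at the level used for the references. In tumour 3, 18 of the 64 cells had ductal reference genes at 0.5% or more, 4 had injury genes at 0.3% or more, and 1 had acinar genes at 1% or more. The ductal genes had a median of 0.323% of UMIs in keratin-gated cells against 1.31% in the ductal reference. Ctrb1, the most abundant acinar enzyme gene, stood at 683 CPM in keratin-gated cells, 474 in the ductal and 15630 in the acinar reference, and 3626 in free RNA of the same library. A doublet score called 6 of the 1209 cells of tumour 3, and among the 60 cells with the highest scores 1 was keratin-gated. Without those 60 cells 1082 genes were higher and 1248 lower, against 1103 and 1290 with them.

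The proliferation genes were carried by few cells. Of 20 G2 and M phase genes 8 were higher, none lower (median log2 ratio 0.90), but 316 of their 428 UMIs came from 3 cells and 24 cells had none. The deepest members were Mki67 at 97.6 against 123 CPM, Cks2 at 156 against 83.5, Birc5 at 117 against 72.8 and Ube2c at 169 against 75.9. Without the 5 deepest cells, and as a mean over cells, Ube2c was not higher, with log2 ratios of -0.61 and -0.19. Top2a, a topoisomerase of dividing cells, gave 62 UMIs in 8 cells, 30 of them in 1. Cells with these genes at 0.5% or more of UMIs were 2 of 64 (3.13%, 0.381% to 10.8%). In the ductal reference they were 8 of 377 (2.12%, 0.920% to 4.14%). These intervals cover counting error only, and with 2 cells they cannot show that the sets are alike. After thinning, 10.9% of keratin-gated and 10.6% of ductal cells had 3 or more UMIs of the list, from 16 of 64 and 80 of 377 cells before thinning. In the acinar reference the share was 29.3%, from 303 of 499 cells before thinning. Against that reference none of the 20 genes was higher and 5 were lower, where 15.5% of all genes were lower. Of 20 S phase genes none was higher and 4 were lower than in the ductal reference. Against the acinar reference none of them was higher and 9 were lower. The replication clamp Pcna stood at 104 against 86.6 in the ductal reference and Nasp at 146 against 88.1. Hells stood at 48.8 against 81.2 and Rrm1 at 78.1 against 52.1. None of 16 MYC and ribosome biogenesis genes was higher or lower: the nucleolar genes Npm1 and Ncl stood at 2876 against 2563 and 1301 against 1223, and the mitochondrial chaperones Hspe1 and Hspd1 at 790 against 928 and 657 against 873. Myc, the gene of the transgene, stood at 29.3 CPM against 29.9 in the ductal reference; the tables do not separate the transgene from the endogenous gene. Msi2, whose promoter drives CreER, stood at 68.3 against 88.2.

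Immune and stress genes were mixed. Il33, an alarmin of squamous and barrier epithelia, stood at 543 against 51.4 CPM (ratio 10.6, 7.92 to 14.3). Ifitm3 stood at 1405 against 92.0 and 1227 in the acinar reference, while of the other 7 interferon genes tested against the ductal reference none was higher and 2 were lower (Isg15 and Irf1, at 1 UMI each). Within 2-fold of the ductal reference, Bst2 stood at 61.8 against 58.3 and Ifi27 at 42.3 against 34.5. Of 7 interferon genes tested against the injury reference 1 was higher and 5 were lower, where 12.2% of all genes were lower. Against the acinar reference 1 of 11 was higher and 6 were lower, where 15.5% of all genes were lower. Among cytokines, 3 of 7 were higher and 2 lower than in the ductal reference. Cxcl2 and Ccl20 rested on 3 and 2 cells, Cxcl5 stood at 192 against 405 and Il18 at 52.0 against 125. Against the injury reference 1 of 8 cytokine genes was higher and 5 were lower, while against the acinar reference all 6 tested were higher. Of the injury list, Lgals3 and F3 were higher than in the ductal reference, F3 with 77 of 151 UMIs in 1 cell, and Plat was lower. Against the injury reference that list was lower in 4 of 6 genes, with Ankrd1, a YAP target, at 13.0 against 419.

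The counts for housekeeping and stress programs stand beside 12.3% of all genes higher and 14.4% lower. Of 12 immediate early genes 3 were higher and none lower, and Fos, Jun, Junb and Jund were within 2-fold. Fosb, at 612 against 199 CPM, had 87 of 188 UMIs in 1 cell. Of 16 hypoxia and glycolysis genes 3 were higher and none lower: the glucose transporter Slc2a1 stood at 114 against 35.3, Adm at 107 against 26.8 and Bnip3 at 74.8 against 29.9, while the glycolytic genes Gapdh, Ldha, Aldoa and Pgk1 were within 2-fold. Of 10 p53 and cell cycle inhibitor genes 2 were higher and none lower, Cdkn2a at 71.6 against 20.7 and Cdkn1b at 48.8 against 16.1. The deepest of that list, Cdkn1a, Bax, Ccng1 and Trp53, were within 2-fold. Of 8 MHC class I genes 1 was higher and none lower, with H2-K1 at 277 against 220 and B2m at 169 against 168. Of the acinar list, 1 of 7 genes was higher and 1 lower.

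Apart from Acta2 of the myoepithelial and smooth muscle list (57 UMIs in 17 cells, with the other 5 genes at 0) and Msln, markers of other cell types were at or near 0. All 7 fibroblast, 5 lymphoid, 5 erythroid, 6 endocrine and 7 melanocyte and hair genes gave 0 UMIs in the 64 cells. The endothelial and Schwann lists gave 1 UMI each, the tuft list 2, and the myeloid list 8, of which 6 were Cd68, with Ptprc at 0. Of the mesothelial list Msln gave 16 UMIs and the other 5 genes 0.

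The keratin-gated cells of tumour 3 differed among themselves in which type I keratin they carried. Krt14 exceeded Krt15 in 36 cells, Krt15 exceeded Krt14 in 27, and 1 cell had equal counts. This split was made after the values were seen and serves as a description. Krt15 was at 0 in 16 of the 36, and Krt14 at 0 in 8 of the 27. Both sets had a like level of Krt5, at 4019 and 3797 CPM. Median depth was 2191.5 UMIs in the Krt14 set and 2759 in the Krt15 set.

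**Figure D4:**
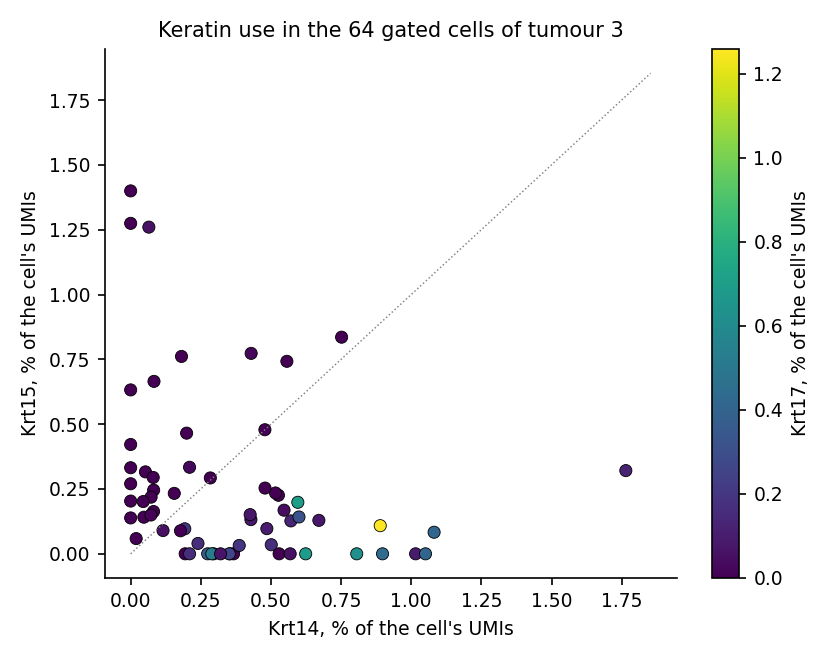
Each point is 1 of the 64 keratin-gated cells of tumour 3, placed by Krt14 and Krt15 as percent of its UMIs and coloured by Krt17. The dotted line marks equal shares. Cells with Krt17 lie along the Krt14 axis: 28 of the 36 Krt14 cells had a Krt17 UMI and 4 of the 27 Krt15 cells.

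Between these sets, 13.4% of 4130 genes were 2-fold or more higher in the Krt14 cells and 9.85% lower. Krt17 gave 306 UMIs in the Krt14 set and 15 in the Krt15 set (ratio 21.5, 12.8 to 38.9). Krt16 gave 45 against 1, and Acta2 56 against 1, in 16 cells and 1 cell. Tagln2 and Tpm1, which bind actin filaments, stood at 1152 against 244 and 664 against 167 CPM. Itgb4 stood at 271 against 96.4. Among genes picked after their values were seen, those higher in the Krt15 set included Gsta1, a glutathione transferase, at 514 against 33.9, Lcn2, an iron-binding antimicrobial protein, at 777 against 102, and Gsto1 at 3585 against 1125. Ly6d stood at 4221 against 1294 and the galectin Lgals4 at 340 against 54.2. Trp63, Col17a1, Sfn and Dsp were within 2-fold, with Trp63 at 156 in the Krt14 and 257 in the Krt15 set. Of 13 hemidesmosome genes 6 were higher in the Krt14 set and none lower. In the summed counts, 8 of 11 S phase and 5 of 15 G2 and M phase genes tested were higher in the Krt14 set, none lower. Few cells carried much of these counts. Of the 287 S phase UMIs of the keratin-gated cells, single Krt14 cells held 48, 44 and 28, and single Krt15 cells 24 and 19. The Krt14 cells with 48 and 44 also held 182 and 25 G2 and M phase UMIs. The Krt15 cells with 24 and 19 held 109 and 22. Whether the sets differ without these cells was not tested. Of 6 squamous transcription factors tested 1 was higher in the Krt14 set and 3 were lower.

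Across the 64 cells the rank correlation of Krt14 with Krt17, as shares of UMIs, was 0.60, and 0.39 after thinning to 1000 UMIs. Krt15 correlated with Krt17 at -0.57 and -0.45, and with Ly6d at 0.52 and 0.37. Krt14 and Krt15 correlated at -0.38 and -0.27. The gate on their sum with Krt5 by itself pushes this value down. The cells share 1 library and differ in depth, and these correlations describe them without a test.

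Depth moved with several marker levels. The 19 cells with 5000 or more UMIs held 216471 UMIs and the 45 others 90935. Krt5 was alike in both, at 4033 and 3772 CPM. Trp63 stood at 273 in the deep and 44.0 in the shallow cells (59 and 4 UMIs), Col17a1 at 453 and 143, and Dsp at 785 and 275. Krt17 was lower in the deep cells, at 841 against 1529. The nuclear RNA Malat1 stood at 26858 in the deep and 2199 in the shallow keratin-gated cells, against 9576 and 4544 in ductal reference cells of these depths, and median mitochondrial shares were 9.29% and 3.15%. Between the sets 24.2% of 4161 genes were higher and 9.16% lower in the deep cells. The part of RNA content or quality in the Trp63 and Col17a1 values was not tested. With cells of 2000 or more UMIs alone (38 keratin-gated and 189 ductal), 1038 genes were higher and 1210 lower.

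The 4 cells of tumours 1 and 2 carried the markers at low counts. In tumour 1 the cells had 4556 and 7916 UMIs, with 15 and 57 of Krt5, 1 and 0 of Trp63, 0 and 7 of Krt6a and 2 and 0 of Col17a1. In tumour 2 the cells had 2020 and 7117 UMIs, with 12 and 35 of Krt5, 1 and 3 of Trp63, 0 and 4 of Krt6a and no Col17a1. Of the 4 cells 3 had a Trp63 UMI. Krt17 gave 1 UMI in each tumour. The Ly6d level was 1443 CPM in tumour 1 (18 UMIs), 3393 in tumour 2 (31 UMIs) and 2778 in tumour 3. The Sfn level was 1443 (18 UMIs), 1094 (10 UMIs) and 1483. With 2 cells in each of tumours 1 and 2, their levels could not be compared with those of tumour 3. Tff1 and Tff2 gave 0 UMIs in the cells of tumours 1 and 2. Krt8 gave 1 and 35 UMIs in the tumour 1 cells and 0 in those of tumour 2. The second cell of tumour 1 also had 77 UMIs of Krt19 and 27 of Ly6a, and its injury genes, at 0.404%, were above the 0.3% that sets the injury reference. Its ductal reference genes, at 0.985%, were above the 0.5% that sets the ductal reference and equal to its keratin share.

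The same barcodes gave the same keratins in the other libraries. All 64 barcodes of tumour 3 had 10 or more UMIs in both other libraries, 31365 in library 1 and 48849 in library 2, with 79.3% of their UMIs at home. The keratin genes made up 1.05% of their UMIs in library 3 (1.01% to 1.09%), 0.950% in library 1 (0.845% to 1.06%) and 0.923% in library 2 (0.840% to 1.01%). In ductal reference barcodes the value was 0.00406% at home. Cell by cell the home and away shares had a rank correlation of 0.76 over 64 cells, and 3 cells had no keratin UMI away from home. Without the home filter libraries 1 and 2 would hold 9 and 19 keratin-gated barcodes instead of 2 and 2. Of these, 7 and 15 had most of their UMIs in library 3, and 2 of the 19 in library 1. The 2 cells left in each of tumours 1 and 2 had 74.5% and 77.7% of their UMIs at home, near the values of their ductal references (74.9% and 77.5%).

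**Figure D5:**
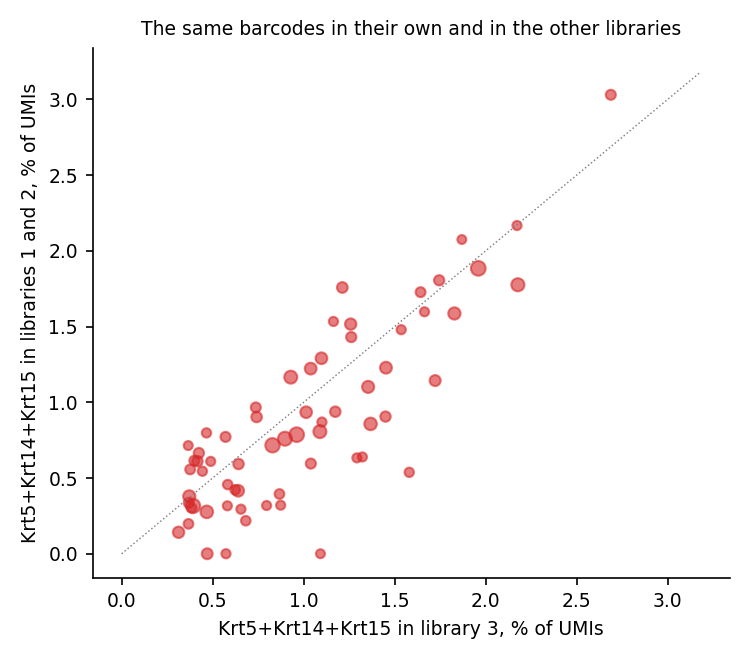
Each point is 1 of the 64 keratin-gated barcodes of tumour 3, with its keratin share of UMIs in library 3 and in libraries 1 and 2 together, in percent. Point size follows the UMIs in libraries 1 and 2, and the dotted line marks equal shares. The points follow the line, with a rank correlation of 0.76.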

How the data were processed

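UMI counts per gene were deposited for 3 libraries as whole numbers, and the file headers name Cell Ranger 3.0.2. Further tools, Seurat 3.1 and Cell Ranger 3 with mm10, stand in the submitters' processing notes. Each table lists 31053 genes and 6794880 barcodes, thus without cell calling. Per the labels' protocols, kit chemistries V1 and V3 both appear. No source names an annotation. GENCODE M21 gave coordinates and RefSeq (GRCm38.p6) the promoters.

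Cells had 1000 or more UMIs, 500 or more genes, at most 20% mitochondrial UMIs, 60% or more of their UMIs in 1 library and under 10% from Gm42418, AY036118 and Gm26917. Doublets were scored (scrublet in scanpy 1.11.5) and kept. Reference cells had to fail the keratin gate. Sums were scaled to CPM, and ratios have exact conditional intervals (scipy 1.17.1). The calculation was checked on simulated counts with counting error only. These hold no spread between cells, so coverage for the real cells was not tested. A count model was planned for 2 or more tumours with 20 or more keratin-gated cells and was not run. Named genes are the basal markers, the 15 highest ratios (20 or more UMIs, 10 or more cells), the 10 lowest (100 CPM or more in the reference), the 4 deepest genes of each list and list transcription factors. Other genes named were chosen after their values were seen. The members, 36 gene lists and rules were chosen with earlier results of these data known. Values of some genes are not reported here.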

Additional observations from a re-analysis of the deposited data

Results flagged for a closer look

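Keratin signal also lay in barcodes below the depth minimum, which entered no comparison. Among barcodes of 500 to under 1000 UMIs with 60% or more of them in their own library, tumour 2 held 4 and tumour 3 held 20 that passed the keratin gate with 3 or more keratin UMIs, above the limit that a count of 0 allows. Tumour 1 held 1. Passing that limit does not separate these barcodes from free RNA, which was not tested barcode by barcode. Krt5 stood at 247 CPM over all such barcodes of tumour 3, against 56.9 in free RNA of that library, and at 53.1 against 36.4 in tumour 2.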

How the results depend on the processing

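Over 13 alternatives for 136 genes, 1240 log2 ratios stayed within the counting interval of the reported value, 464 moved out of it, 20 reversed and 44 had too few UMIs to give a direction; of list medians 134 stayed, 64 moved and 1 reversed. The share in tumour 3 became 3.97% and 2.48% with the gate at 0.5% and 1%, 2.50% without the ribosomal-locus filter and 2.39% at 80% home UMIs, which keeps 251 of its cells. At 80% home UMIs tumours 1 and 2 gave 0%, as did tumour 1 with the gate at 1%. Without the home filter tumours 1 and 2 gave 0.794% and 4.13%, and at 2000 UMIs tumour 2 gave 7.69% (2 of 26 cells). Leaving out each tumour gave means of 0.589% to 3.14%. Higher and lower genes numbered 570 and 688 after thinning, 518 and 755 at 80% home UMIs (6 keratin-gated cells), and 248 and 449 with 50 or more UMIs required, an alternative chosen after seeing the data; fewer genes are tested in each. Against all other cells 1958 genes were higher, and against the injury reference 773 were lower. Lists with a median 2-fold or more higher, among those with 3 or more genes tested and without the basal markers, numbered 7, but 4 against the injury and 11 against the acinar reference; the cause was not tested. Reversed log2 ratios were, after thinning, Ube2c at -0.57. At 80% home UMIs they were Plec -0.67, Dsp -0.23, Sprr1a -1.36 and F3 -0.15. Ube2c also gave -1.76 with the gate at 1%, -0.19 as a mean over cells, -0.030 against all other cells and -0.61 without the 5 deepest cells, the last chosen after seeing the data. Il18 gave 0.098 against all other cells, and Sprr1a and Lgals3 gave -1.03 and -0.20 against the injury reference. Against the acinar reference Lypd8 gave 0.30, Krt8 0.28, Tff1 0.21, Lgals4 1.203, Ube2c -0.66, Cxcl5 3.67, Il18 3.84, Avil 1.33 and the ductal and gastric list 0.43. No test over tumours was made, paired by tumour or not, because only tumour 3 reached the planned 20 keratin-gated cells. With 4 cells in tumours 1 and 2, gene levels there could not be compared with those of tumour 3.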
